A study of Mus musculus with 3 samples.

Results

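The m5C sites of ribosomal protein mRNAs were examined in mouse GV oocytes, MII oocytes and 1-cell embryos. Members were taken by name, as genes whose symbol starts with Rpl, Rps, Mrpl or Mrps followed by a digit, or with Rplp, together with Rpsa and without the Rps6k kinases. They held 206 of the 40298 distinct m5C sites of the 3 lists, in 98 of 8353 genes. The cytosolic class (Rpl, Rps, Rplp and Rpsa) had 72 sites in 45 genes and the mitochondrial class (Mrpl and Mrps) had 134 sites in 53 genes. The name rule also takes in Rps19bp1, a binding partner of RPS19 that is not a ribosomal protein, and the paralogs Rpl39l, Rpl7l1 and Rps27l. It further takes in Rps4l, annotated as a transcribed processed pseudogene, and copies named as pseudogenes, of which Rps12-ps3 is annotated as protein coding.

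RNA was treated with bisulfite, which turns cytosine (C) into uracil and leaves 5-methylcytosine (m5C) unchanged, and the m5C level of a site is the percentage of its reads that stayed unconverted. The donors were wildtype C57BL/6J females of 7 to 8 weeks. GV (germinal vesicle) oocytes, arrested before meiotic resumption, were taken 48 h after 10 IU of PMSG. MII (metaphase II) oocytes, matured and awaiting fertilization, were taken 12 h after 5 IU of hCG in females primed with 10 IU of PMSG 44 to 48 h earlier. The 1-cell embryos, about 200 in the library, were taken 24 h after 5 IU of hCG in females primed with 5 IU of PMSG 44 to 48 h earlier and mated with C57BL/6J males. These doses are those of the labels. The study's methods give a wider age range for oocyte donors and a higher hCG dose for MII oocytes. For embryos they refer to the same induction, with higher doses of both hormones than the labels. Each stage is 1 library, so no value has a replicate check, and stage cannot be told apart from library and hormone dose. The reads at called sites summed to 4475058 (GV oocyte), 5285011 (MII oocyte) and 2616279 (1-cell embryo). The lists hold called sites alone, with at least 20 reads, 5 unconverted reads and a level of 10.0%, so a site missing from a list may be unmethylated, below these limits or not covered. They hold no expression values, so the labelled stages could not be checked against marker genes.

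Cytosolic ribosomes translate nuclear mRNAs, and mitochondrial ribosomes translate the few mRNAs of the mitochondrial genome. The proteins of both are encoded in the nucleus. Most cytosolic ribosomal protein mRNAs start with a 5′ terminal oligopyrimidine tract, through which their translation is controlled as a group, and these genes have left many processed pseudogenes. Messenger RNA m5C is placed mainly by NSUN2, at G-rich sites called Type I, and by NSUN6, at sites in the motif CUCNA called Type II.

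The windows of the sites that the results turn on are given below as RNA from 10 bases before to 10 bases after the site, read from GENCODE M21 transcripts (GRCm38), with the called C and the 4 bases after it in capitals. The first 4 belong to cytosolic sites that were lower in the MII than in the GV oocyte.
Rpl34: ccccuggcaaCAGGAuuguuu
Rps9: ccuggacucuCAGAAgcacau
Rplp0: cacugagauuCGGGAuaugcu
Rpl23: cugugaucaaCUGUGcagaca
They lie at chr3:130729122-130729142 (minus strand, Rpl34 exon 3), chr7:3706693-3706713 (plus strand, Rps9 exon 4), chr5:115560971-115560991 (plus strand, Rplp0 exon 3) and chr11:97781812-97781832 (minus strand, Rpl23 exon 2), all in coding sequence (CDS). The converted 51-nt sequence around the site also occurs in 7 other genes for Rpl34, 4 for Rplp0, 1 for Rpl23 and 0 for this Rps9 site. A pair of windows from different genes shows why some cytosolic reads have no certain origin.
Rps27a: ccaucacgcuCGAGGuugaac
Rps27a-ps2: ccaucacgcuCGAGGuugaac
The letters of both are the same, from Rps27a exon 2 (site chr11:29547684, minus strand, window across an exon junction) and from the pseudogene at chr9:83409694-83409714 (plus strand). The next set belongs to mitochondrial sites that were higher at a later stage.
Mrps14: ucaauccuggCAGGAgacuua
Mrpl37: agcuccuuuaCCGGCacuucu
Mrpl58: uccagagcauCUACAgccugg
Mrps35: ugcccgggagCGCGCguccug
Mrpl34: caagcacaagCACGGcugggu
They lie at chr1:160199641-160199661 (plus strand, 3′ UTR of Mrps14, exon 3), chr4:107057407-107057427 (minus strand, Mrpl37 exon 6), chr11:115403890-115403910 (plus strand, Mrpl58 exon 1), chr6:147042831-147042851 (plus strand, Mrps35 exon 1) and chr8:71465364-71465384 (plus strand, Mrpl34 exon 2), the last 4 in CDS. The last pair shows the Type II motif, in the CDS of Rps3 and in the 3′ UTR of Mrps25.
Rps3: caggcagaguCUCUAcgcuac
Mrps25: aggggagauuCUCCAgcccca
They lie at chr7:99481726-99481746 (minus strand, Rps3 exon 4) and chr6:92174546-92174566 (minus strand, Mrps25 exon 4).

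Mitochondrial ribosomal protein mRNAs had more listed sites than cytosolic ones at each stage, and the embryo list had the highest number for both classes. These orders depend on shallow sites. The cytosolic class had 34 GV sites in 25 genes, 27 MII sites in 19 genes and 53 embryo sites in 32 genes. The mitochondrial class had 41 sites in 27 genes, 54 in 32 genes and 101 in 44 genes. Exact Poisson intervals (95%), which cover counting error only, ran from 24 to 48, 18 to 39 and 40 to 69 for cytosolic sites and from 29 to 56, 41 to 70 and 82 to 123 for mitochondrial sites, so they overlapped between the classes in the oocyte lists and did not in the embryo list. All genes together had 15910, 20694 and 24996 sites, so that the lists grew from stage to stage while the cytosolic count was lowest in the MII oocyte. With sites of at least 100 reads alone, the counts were 24, 17 and 30 for cytosolic and 27, 36 and 19 for mitochondrial sites, so that the embryo order of the classes turned and the embryo had the fewest mitochondrial sites. Without sites whose 51-nt window occurs in another gene, the counts were 18, 16 and 19 for cytosolic and 40, 53 and 93 for mitochondrial sites. Both orders held in these counts, with the cytosolic embryo count close to that of the GV oocyte.

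**Figure D1:**
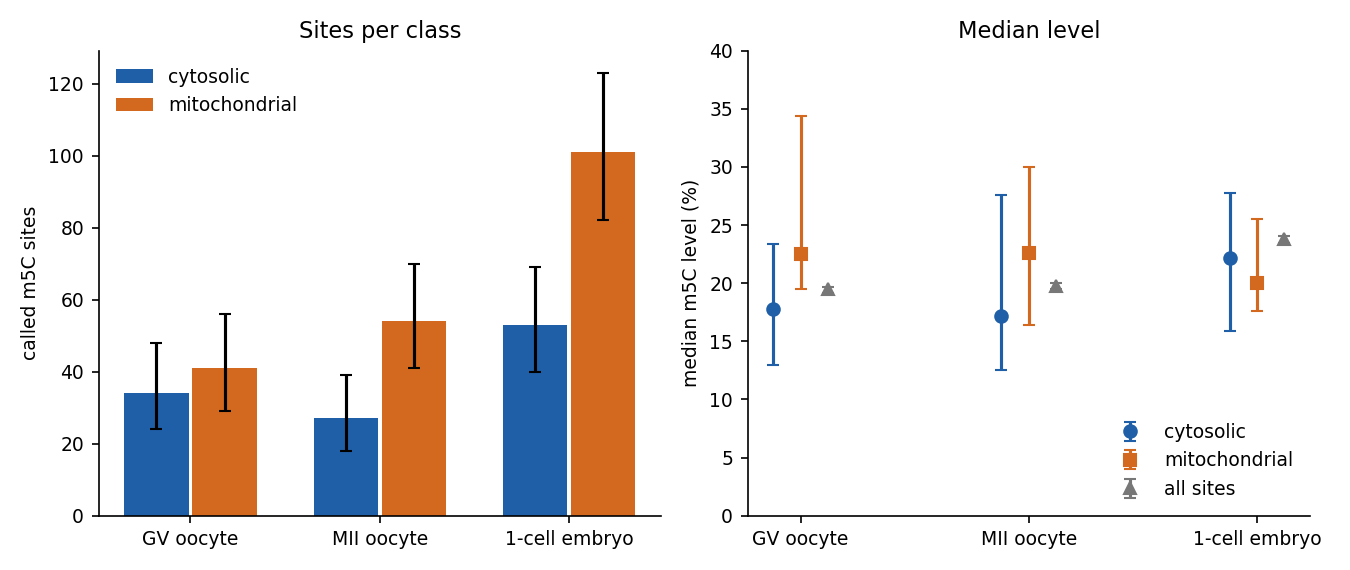
Left, number of called m5C sites (y axis) of cytosolic and mitochondrial ribosomal protein genes at each stage, with 95% Poisson intervals as error bars. Right, median m5C level (%) of the same sites and of all sites of each list, with order-statistic 95% intervals. Mitochondrial bars rise from 41 to 101 sites, cytosolic bars dip to 27 in the MII oocyte, and the intervals of the class medians overlap at each stage.

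Read against the genes that exist, 53 of 78 annotated mitochondrial genes (67.9%, Wilson 95% interval 57.0 to 77.3) had a site in at least 1 list, against 42 of 92 protein-coding cytosolic genes (45.7%, 35.9 to 55.8) and 36.5% of all protein-coding genes. The mitochondrial share was 34.6% (GV), 41.0% (MII) and 56.4% (embryo), and the cytosolic share was 23.9%, 18.5% and 33.7%. For all protein-coding genes the shares were 26.9%, 29.6% and 28.2%. The GV intervals of both classes (25 to 45.7 and 16.4 to 33.6) held the share of all genes. So did the cytosolic interval in the embryo (24.9 to 43.8), while the MII interval of the mitochondrial class (30.8 to 52.1) lay just above it, its embryo interval (45.4 to 66.9) well above it, and the cytosolic MII interval (11.9 to 27.6) below it. Whether transcript level sets these shares was not tested, as genes without a site have no coverage in the lists. Sites also clustered more in mitochondrial genes, at 1.52, 1.69 and 2.30 sites per listed gene against 1.36, 1.42 and 1.66 in cytosolic genes, while all genes had 2.60, 3.07 and 3.90.

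The genes with most sites in 1 list were Mrpl38 with 8, and Mrpl37 and Mrpl4 with 6 each, all components of the mitochondrial large subunit and all in the embryo. All 6 Mrpl4 sites were in the embryo list alone. Among cytosolic genes the most was 5, in Rps4l, a copy of the small subunit gene Rps4 that the annotation lists as a pseudogene without CDS. In the oocytes the highest numbers were 4 sites, in Mrpl28 in the GV oocyte and in Mrpl44 in the MII oocyte, both of the mitochondrial large subunit.

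Over all listed sites, the classes differed more in coverage than in level. In the GV oocyte, cytosolic sites had a median of 334.5 reads and mitochondrial sites of 156, against 121 for all sites. The MII medians were 189, 130 and 107, and the embryo medians 106, 64 and 58. At sites whose window was found in no other gene, the cytosolic and mitochondrial GV medians were 147.5 and 163.5 reads. They were 107 and 130 in the MII oocyte and 83 and 66 in the embryo. The order of the classes thus turned in both oocytes and held in the embryo, in a split made after the data were seen. Sites with at least 500 reads made up 41.2% of the cytosolic GV sites (14 of 34) and 37.0% of the MII sites (10 of 27), against 7.32% and 3.70% of the mitochondrial and 12.2% and 10.6% of all sites. In the embryo list 2 of 53 cytosolic sites reached 500 reads, in Rps6 and Rpl13. The deepest GV sites lay in Rps21 (12.9% of 2675 reads, listed in the GV oocyte alone) and in Rps14 (13.0% of 2483 and 19.3% of 2479), both small subunit proteins. The deepest MII sites lay in Rps9 (10.5% of 2108) and again in Rps14 (11.1% of 2059 and 18.7% of 2047). In the embryo they lay in Rps6, a target of S6 kinase (10.8% of 713), Rpl13 (30.9% of 543) and Rplp0, the base of the ribosomal stalk (11.3% of 487). These reads say nothing of how many mRNAs are modified per cell, since in bulk libraries fewer cells and less RNA per cell cannot be told apart.

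The deepest mitochondrial GV sites were Mrpl34 (57.8% of 740 reads), Mrpl18 (44.7% of 640) and Mrpl28 (27.1% of 538). In the MII oocyte they were Mrpl34 (63.2% of 622), Mrpl9 (10.7% of 535) and Mrpl28 (35.0% of 469). In the embryo they were Mrps25 (11.4% of 603), Mrpl18 (11.8% of 357) and Mrpl48 (15.1% of 352). Mrpl34 thus combined the deepest coverage of its class in both oocytes with a level above 50%, while the deepest cytosolic sites lay mostly near the 10.0% limit.

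**Figure D2:**
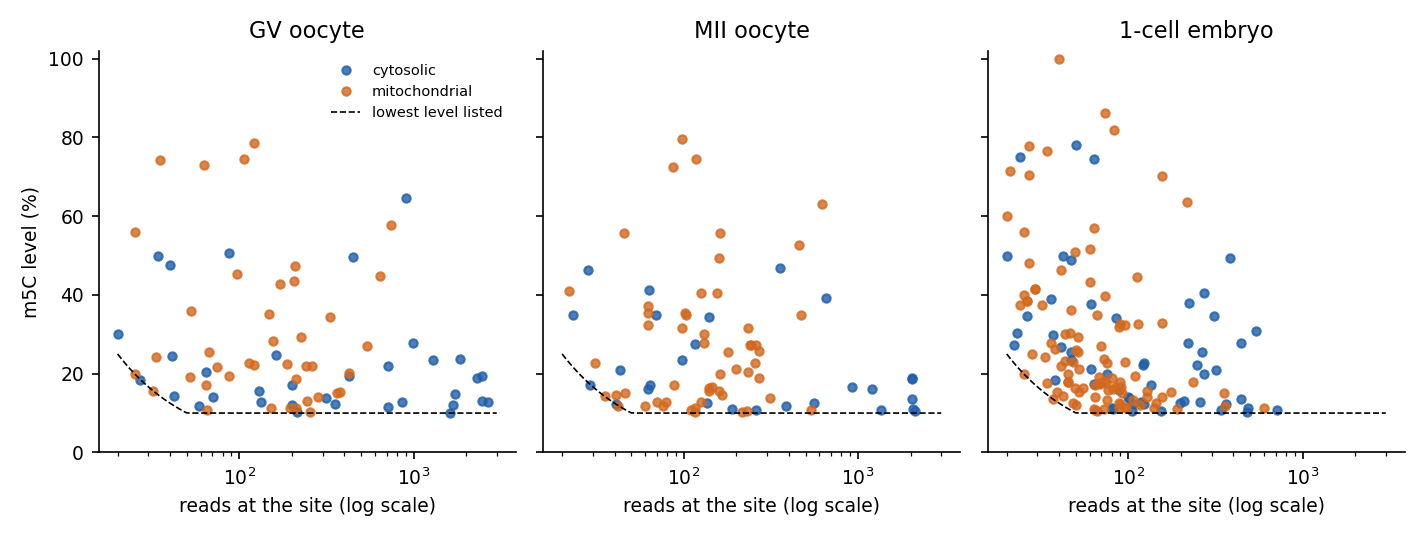
m5C level (%) of each member site against its reads on a log axis, by stage, in cytosolic and mitochondrial ribosomal protein genes. The dashed line is the lowest level a site could have to be listed (5 unconverted reads and 10.0%). Cytosolic sites reach 2675 reads in the GV oocyte and 713 in the embryo, and few of the sites above 50% are cytosolic.

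Median levels were 17.8%, 17.2% and 22.2% for cytosolic sites and 22.5%, 22.6% and 20.0% for mitochondrial sites, in the order of the stages, against 19.5%, 19.8% and 23.8% for all sites. The 95% intervals of the cytosolic medians (13.0 to 23.4, 12.5 to 27.6 and 15.9 to 27.8) overlapped those of the mitochondrial medians (19.5 to 34.4, 16.4 to 30.0 and 17.6 to 25.5) at each stage. Over all listed sites, the cytosolic median was above the mitochondrial one in the embryo only, by 2.18 points. With sites of at least 50 reads this difference turned to -0.0407 points, and with 1 median per gene to -2.35 points. At sites whose window was found in no other gene, the cytosolic and mitochondrial medians were 18.9% and 22.6% in the GV oocyte. They were 25.5% and 22.7% in the MII oocyte and 28.9% and 21.2% in the embryo, with the cytosolic median higher in both. These medians rest on 14 to 18 cytosolic sites, and their differences were not tested. At least 50% was reached by 3, 0 and 5 cytosolic sites and by 6, 7 and 14 mitochondrial sites.

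Among sites with at least 50 reads, the highest cytosolic levels in the GV oocyte were 64.7% of 900 reads in Rpl34, 50.6% of 87 in Rps19bp1 and 49.7% of 451 in Rps4l. The same 3 sites led in the MII oocyte, at 39.1% of 657, 41.3% of 63 and 46.9% of 354. In the embryo Rpl34 (78.0% of 50 reads) and Rps4l (74.6% of 63) were followed by Rplp0 (49.3% of 381). The mitochondrial maxima lay higher in both oocytes, in Mrps27 (78.7% of 122 and 79.6% of 98 reads) and in Mrpl51 (74.5% of 106 and 74.6% of 118). Next came Mrps16 in the GV oocyte (73.0% of 63) and Mrps35 in the MII oocyte (72.4% of 87), all of these except Mrpl51 in the small subunit. In the embryo the highest were Mrps14 (86.3% of 73), Mrpl37 (81.9% of 83) and Mrpl34 (70.3% of 155). Below 50 reads, all 40 embryo reads of the Mrps10 3′ UTR site were unconverted (Wilson interval 91.2% to 100%).

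Within each class the intervals of the large and the small subunit overlapped at every stage. Cytosolic large subunit sites had medians of 23.4% (11.5 to 47.5, 13 sites), 17.2% (11.1 to 39.1, 11 sites) and 25.5% (17.5 to 34.6, 29 sites). Cytosolic small subunit sites had 15.5% (12.9 to 19.3, 21 sites), 16.9% (11.9 to 27.6, 16 sites) and 17.2% (12.3 to 27.3, 24 sites). The mitochondrial large subunit went from 22 to 29 to 67 sites and the small subunit from 19 to 25 to 34, so most of the additional embryo sites were in the large subunit.

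The lists shared fewer cytosolic sites with the embryo than with each other. Of the 72 cytosolic sites, 34 (47.2%) were in the embryo list alone, 12 (16.7%) in all 3 lists and 11 (15.3%) in both oocyte lists and not the embryo. Of the 134 mitochondrial sites, 75 (56.0%) were in the embryo list alone, 21 (15.7%) in all 3 and 15 (11.2%) in both oocyte lists alone, and among all sites these shares were 41.3%, 15.2% and 16.9%. Between the oocyte lists, 23 cytosolic sites were shared, which was 67.6% of the GV and 85.2% of the MII sites, and 36 mitochondrial sites, which was 87.8% and 66.7%. All sites followed the mitochondrial order, with 81.4% of the GV and 62.6% of the MII sites shared.

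A further 6 cytosolic sites (8.33%) were in the GV and embryo lists and missing from the MII list, against none of the 134 mitochondrial sites and 0.826% of all sites. They lay in Rpl13, Rpl29, Rpl6, Rps3 and Rps6, all in CDS, and in the 5′ UTR of Rpl27. Of these, 5 had GV levels under 15%, from 10.0% of 1610 reads in Rpl13 to 13.7% of 315 in Rpl6, so a slightly lower MII level would take them below the list's limit. Rpl27 was the exception, at 47.5% of 40 GV reads and 75% of 24 embryo reads.

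Between the oocytes, the deeply covered cytosolic sites were lower in the MII library, where most sites of all genes were higher. Over cytosolic sites of every depth without a copy in another gene, the median difference had the other direction (0.831 points). The deeply covered sites among those without a copy were lower in the MII library. Across the 23 shared cytosolic sites the median difference was -2.77 points (95% interval -5.35 to 2.89), with 15 lower and 8 higher in the MII oocyte. Across the 36 shared mitochondrial sites it was 5.16 points (0.903 to 8.06), with 26 higher and 10 lower, close to the 4.87 points of all 12954 shared sites, of which 22.8% were lower. Each site was tested with Fisher's exact test (two-sided) on unconverted and converted reads, with Benjamini-Hochberg adjustment over all shared sites, and was called at an adjusted p under 0.05. The test compares 2 libraries and not the stages, and reads are not independent molecules. By it 8 cytosolic sites were called lower, where 0.965% of all shared sites were, and 2 were called higher, where 19.6% were. The 8 include Rps27a and Rps27a-ps2, whose windows are the same, and both Rps9 sites, so they are not 8 separate observations. Of the mitochondrial sites 7 were called higher and 0 lower.

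The largest fall was in Rpl34, a large subunit protein, from 64.7% of 900 reads to 39.1% of 657 (Fisher's exact test, adjusted p = 5.34e-21). The exon 4 site of Rps9, a small subunit protein, went from 27.7% of 994 reads to 16.6% of 918 (Fisher's exact test, adjusted p = 2.38e-07). Rps27a, which encodes ubiquitin fused to a small subunit protein, went from 22.0% of 710 to 12.5% of 559 (Fisher's exact test, adjusted p = 2.09e-04). The others fell by fewer points: Rpl23 (23.4% of 1294 reads to 16.1% of 1205), the exon 5 site of Rps14 (18.8% of 2307 to 13.5% of 2028), Rplp0 (23.6% of 1846 to 19.0% of 2028), the exon 3 site of Rps9 (14.9% of 1730 to 10.5% of 2108) and Rps27a-ps2 (19.3% of 425 to 11.9% of 385). They thus covered both subunits and, apart from the pseudogene, lay in CDS at deep coverage. The rises called were in Rpl39l, a paralog of Rpl39 (12.8% of 133 reads to 34.8% of 69, Fisher's exact test, adjusted p = 0.00386), and in the 3′ UTR of Rps19bp1 (17.0% of 200 to 34.3% of 140, Fisher's exact test, adjusted p = 0.00315). Neither of these genes encodes a standard cytosolic ribosomal protein.

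The fall was most regular at the deepest sites, in a split by depth that was added after the data were seen. All 9 cytosolic sites with at least 500 reads in both oocyte lists were lower in the MII oocyte, with a median difference of -5.35 points, and 7 of them were called lower. They lay in Rpl23, Rpl34, Rplp0, Rps27a, Rps9 and Rps14. Rps9 and Rps14 had more than 1 of them, and sites of 1 gene are not replicates. Of all 1534 sites at this depth 6.84% were lower and 1.37% were called lower, and the median difference was 5.59 points upwards. With both read numbers at 100 or more and under 500, 4 of 7 cytosolic sites were lower with a median of -1.66 points, against 5 of 22 mitochondrial sites and 19.3% of all 5411 sites.

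The origin of the reads limits this result. For 40 of the 69 cytosolic sites with a full window (58.0%, 46.2 to 68.9), the converted 51-nt sequence around the site occurs unchanged in a transcript of another gene, in up to 18 of them, against 9 of 134 mitochondrial sites (6.72%). Of the 10 shared cytosolic sites with such a copy, 9 were lower in the MII oocyte and 7 were called lower. Of the 13 without one, 6 were lower, 1 was called lower (exon 4 of Rps9) and 2 were called higher (Rpl39l and Rps19bp1). Their median difference was 0.831 points, the opposite direction. Among the 7 of these in genes with standard names, 4 were higher and 3 lower, with 0 called higher and 1 called lower. Among all cytosolic sites of the GV list, the 16 with a copy had a median of 807.5 reads and the 18 without one of 147.5. The part of reads from copies in the difference was not tested. With all reads divided by 5, to allow for reads that are not independent, 1 cytosolic site was called lower (Rpl34, Fisher's exact test, adjusted p = 0.00340). The window of this Rpl34 site occurs in 7 other genes.

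**Figure D3:**
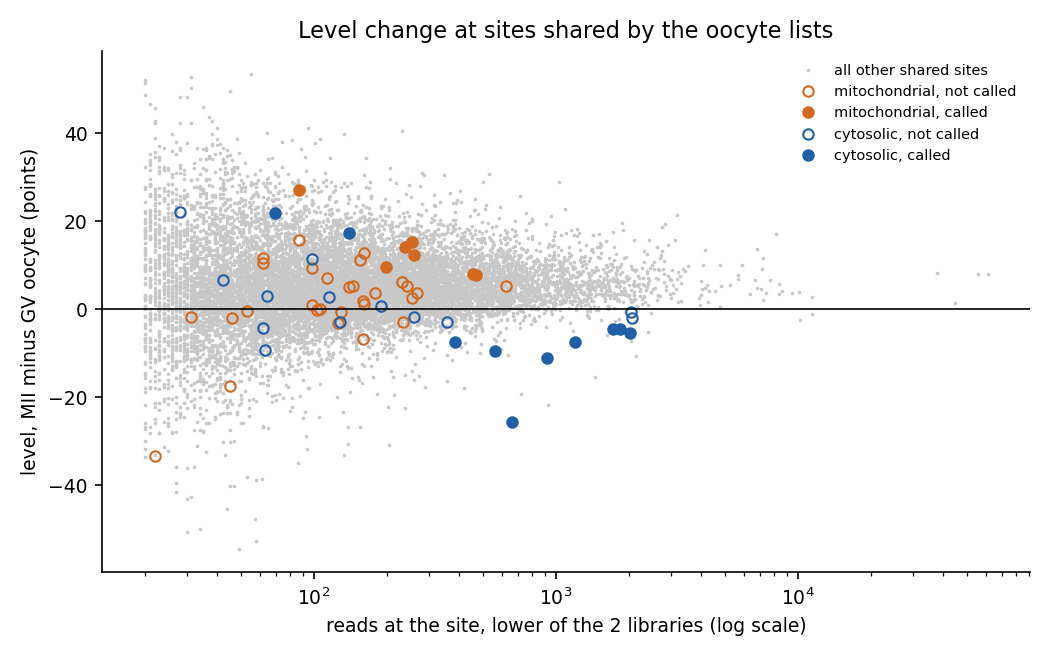
Difference in m5C level (MII minus GV oocyte, percentage points) at every site shared by the oocyte lists, against the lower of its 2 read numbers on a log axis. Filled circles were called by Fisher's exact test and open circles were not. The 9 cytosolic sites at 500 reads or more, a limit set after the data were seen, lie below 0. The cloud of all other sites lies mostly above it.

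The mitochondrial sites called higher in the MII oocyte lay in both subunits. Mrps35 went from 45.4% of 97 reads to 72.4% of 87 (Fisher's exact test, adjusted p = 0.00315). Mrpl58, a peptidyl-tRNA hydrolase built into the large subunit, went from 10.2% of 254 to 25.7% of 269 (Fisher's exact test, adjusted p = 9.17e-05). The 3′ UTR site of Mrpl28 went from 13.0% of 246 to 27.2% of 239 (Fisher's exact test, adjusted p = 0.00129). The other 4 rose by 7.83 to 12.3 points, in exon 5 of Mrpl28 (27.1% to 35.0%), exon 11 of Mrps27 (15.1% to 27.4%), the 3′ UTR of Mrps25 (11.4% to 21.1%) and Mrpl18 (44.7% to 52.7%). With reads divided by 5, none of these calls was left. The largest decreases, in Mrps10 (74.3% of 35 reads to 40.9% of 22) and Mrps16 (73.0% of 63 to 55.6% of 45), rested on few reads and were not called (Fisher's exact test, adjusted p = 0.0940 and 0.200).

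At sites shared by the MII oocyte and 1-cell embryo lists, levels were higher in the embryo in both classes. The median over all listed mitochondrial sites was not, at 22.6% in the MII oocyte and 20.0% in the embryo. Shared sites were higher by a median of 17.3 points (7.65 to 27.8) over 13 cytosolic sites and 10.9 points (1.89 to 18.9) over 26 mitochondrial sites, against 12.7 points over all 8015 shared sites. By Fisher's exact test 10 cytosolic and 11 mitochondrial sites were called higher, where 51.3% of all shared sites were, and no member site was called lower, where 2.45% were. The mitochondrial share (42.3%) was thus near the background. The sites called differ in depth, with a median of 1205 MII reads at shared cytosolic and 214.5 at shared mitochondrial sites, so calls are not comparable between the classes. Since a listed site needs 5 unconverted reads, sites with few embryo reads cannot be shared at low embryo levels. With at least 100 reads in both lists, the median differences were 14.7 points (8 cytosolic sites), 10.8 (5 mitochondrial sites) and 8.87 (all 2707 sites). This split was also made after the data were seen.

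Rplp0 had the smallest adjusted p of the member sites, going from 19.0% of 2028 reads to 49.3% of 381 (Fisher's exact test, adjusted p = 1.21e-30). Rpl34 went from 39.1% of 657 to 78.0% of 50 (Fisher's exact test, adjusted p = 7.88e-07), above its GV level of 64.7% by 13.3 points, a difference that was not called (Fisher's exact test, adjusted p = 0.0921). The Rps9 sites went from 16.6% of 918 to 37.9% of 224 and from 10.5% of 2108 to 27.8% of 443. Rps4l rose from 46.9% of 354 to 74.6% of 63 at its most methylated site, and the exon 1 site of Rpl23 from 11.1% of 189 to 38.9% of 36.

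The largest mitochondrial rise was in the Mrps10 3′ UTR, from 40.9% of 22 reads to 100% of 40 (Fisher's exact test, adjusted p = 4.05e-07). Mrpl37 rose from 31.6% of 234 to 81.9% of 83 in exon 6 (Fisher's exact test, adjusted p = 3.24e-14) and from 25.6% of 180 to 70.4% of 27 in exon 7. Mrps14 rose from 40.6% of 155 to 86.3% of 73 (Fisher's exact test, adjusted p = 4.90e-10). Mrpl11 rose from 35.0% of 103 to 71.4% of 21 (Fisher's exact test, adjusted p = 0.00724). Of the sites that were already high, Mrpl51 stood at 74.5%, 74.6% and 76.5% at the 3 stages. Decreases were seen in Mrpl10 exon 2 (55.6% of 162 to 39.7% of 73) and Mrpl44 exon 4 (40.5% of 126 to 26.3% of 38) and were not called (Fisher's exact test, adjusted p = 0.0618 and 0.193).

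Between the GV oocyte and the 1-cell embryo, which share their libraries with the comparisons above, the median difference was 11.6 points (5.99 to 24.9) over 18 cytosolic and 18.9 points (7.85 to 25.7) over 21 mitochondrial sites, against 19.2 points over all 6478 shared sites. Fisher's exact test called 11 and 14 of them higher, where 66.1% of all shared sites were called higher, and none lower, where 1.05% were. The level was lower in the embryo at 2 of the cytosolic and 3 of the mitochondrial sites, where 9.56% of all were. With at least 100 reads in both lists, the median differences were 9.47 points (11 cytosolic sites), 15.7 (4 mitochondrial sites) and 14.7 (all 2127 sites). Cytosolic sites seen in this pair alone included Rpl13 (10.0% of 1610 reads to 30.9% of 543) and Rpl6 (13.7% of 315 to 48.9% of 47), both called (Fisher's exact test, adjusted p = 6.95e-27 and 5.91e-07), while Rps6 (12.1% of 1686 to 10.8% of 713) and Rps3 (12.9% of 854 to 10.5% of 105) were not (Fisher's exact test, adjusted p = 0.471 and 0.697).

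**Figure D4:**
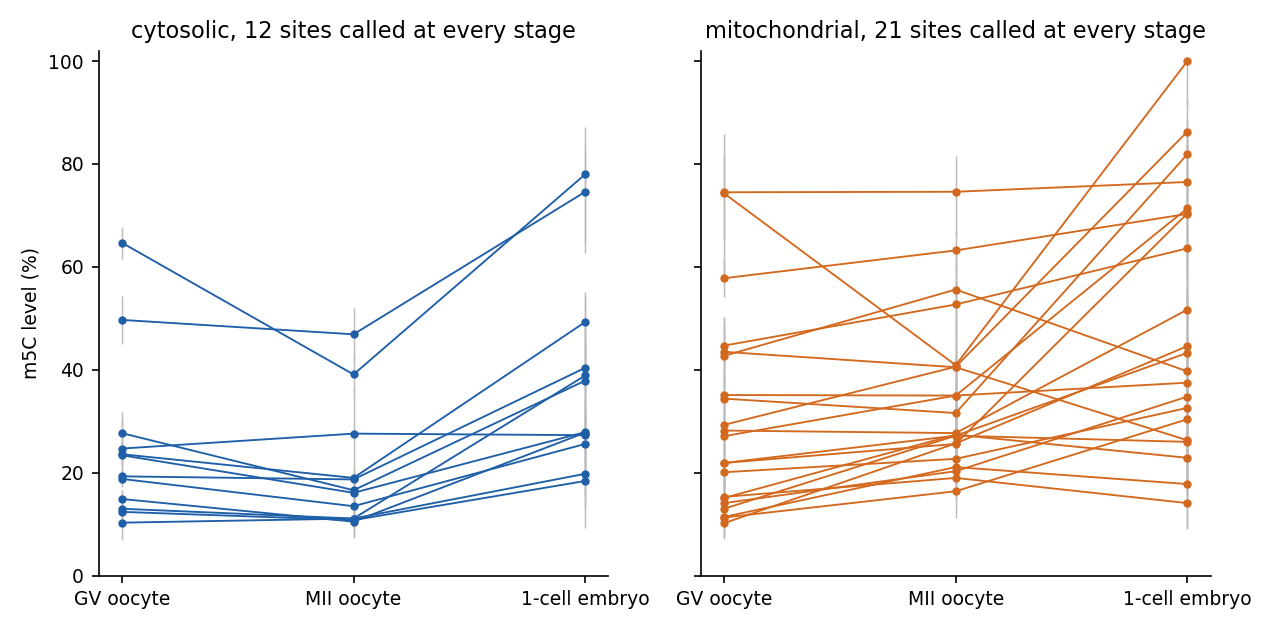
m5C level (%) at the member sites called in all 3 lists, 12 cytosolic (left) and 21 mitochondrial (right). Points are levels, bars are Wilson 95% intervals and lines join the libraries of 1 site. Among the steepest lines, Rpl34 drops from 64.7% to 39.1% and returns to 78.0%, and Mrps14 climbs from 29.3% to 40.6% and 86.3%.

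The 12 cytosolic sites of all 3 lists lay in 6 genes: Rpl23, Rpl34, Rplp0, Rps9, Rps14 and Rps4l. Their median levels were 21.4% (GV), 16.3% (MII) and 32.9% (embryo), so the MII oocyte had the lowest median. Their median coverage was 1144, 1062 and 221.5 reads. The 21 mitochondrial sites lay in 16 genes, with median levels of 27.1%, 27.7% and 43.3% at median coverages of 246, 232 and 60 reads. Besides the genes named above these were Mrpl38 (14.1%, 20.3% and 34.8% in exon 4, and 21.9%, 27.2% and 43.3% in exon 5), Mrpl57 (11.3%, 16.4% and 30.4%) and Mrps24 (15.3%, 19.0% and 14.1%).

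Coverage at shared sites dropped most in the cytosolic class. From MII to embryo the median ratio of reads was 0.182 at cytosolic, 0.338 at mitochondrial and 0.318 at all shared sites, and from GV to embryo it was 0.159, 0.237 and 0.280. Between the oocytes the ratios lay close together, at 0.829, 0.825 and 0.867. The ratio includes the difference in sequencing depth between the libraries, which the classes share.

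The sites listed in the embryo alone were of low level and, for cytosolic genes, not shallow. The 34 cytosolic ones, in 27 genes, had a median level of 17.2% (10.2% to 50%) at a median of 100.5 reads, and 18 of them had at least 100 reads. The 75 mitochondrial ones, in 37 genes, had a median of 17.6% (10.6% to 77.8%) at 66 reads, and 14 had at least 100. Examples are Rpl24 (34.6% of 309 reads), Rpl12 (50% of 42), Mrpl10 exon 5 (77.8% of 27) and Mrpl36 (60.0% of 20), genes chosen after their values were seen. The 13 mitochondrial sites of the MII list alone all lay under 15%, from 10.2% to 14.6%.

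Most member sites lay in CDS, at 65.3% of cytosolic (53.8 to 75.2) and 78.4% of mitochondrial sites (70.6 to 84.5), against 70.1% of all distinct sites. The 3′ UTR held 6.94% and 12.7%, against 17.0% of all sites, and the 5′ UTR 16.7% and 7.46%, against 10.8%. Another 9.72% of the cytosolic sites were in exons without CDS, mainly the 5 sites of Rps4l, and 1 MII site of Rpl37 was in no annotated exon. Within CDS, 33.3% of cytosolic Type I sites (15 of 45) and 24.2% of mitochondrial ones (24 of 99) were in the first 100 coding bases, against 7.61% of all Type I sites. These coding sequences are short, with medians of 495 and 774 bases at member sites against 2229, and in relative terms the sites sat at 40.2% and 37.8% of the CDS against 48.7%.

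The cytosolic Type I sites in CDS rarely hit the second codon position, at 4 of 45 (8.89%), with 20 (44.4%) at the first and 21 (46.7%) at the last position. The mitochondrial sites were at the 3 positions in 31.3%, 28.3% and 40.4%, and all sites in 37.4%, 26.9% and 35.7%. Both classes were G-rich after the site like all sites, with a mean of 2 and 1.95 G in the 4 bases after it against 2.07. G stood at the second of these bases in 67.2% of cytosolic and 50% of mitochondrial sites (63.9% of all), and at the third in 53.7% and 66.7% (59.9% of all). The letters CGAG, as in the Rps27a window, were found in 10.4% and 11.1% against 6.26% of all Type I sites, and CAGG, as in Rpl34 and Mrps14, in 16.4% and 12.7% against 17.2%.

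**Figure D5:**
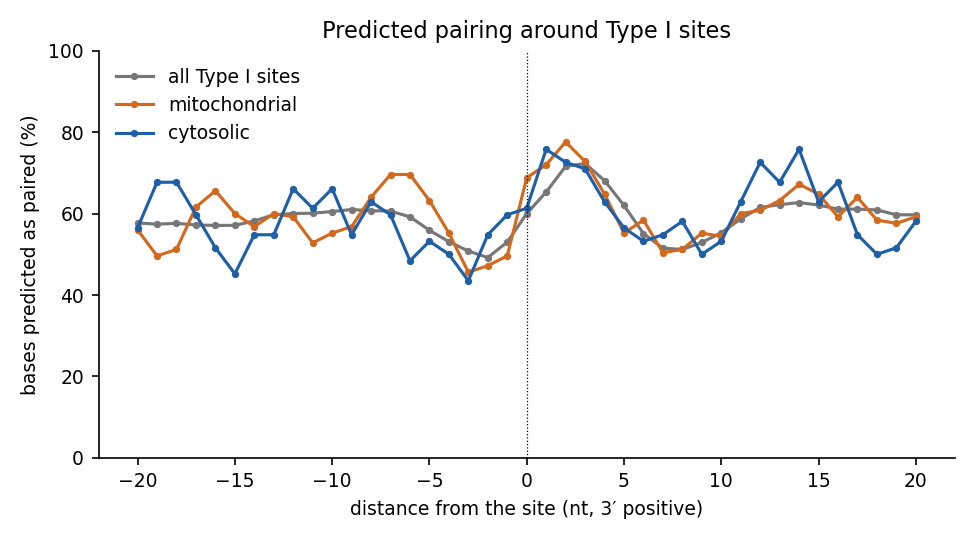
Percentage of Type I sites whose base is predicted as paired (RNAfold), against the distance from the site in nt, for cytosolic, mitochondrial and all sites. The 3 lines run close together, with a low just before the site and a high over the 4 bases after it (70.6%, 71.8% and 69.3%).

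In minimum free energy folds of 101-nt windows, the base of the site was paired at 61.3% of cytosolic Type I sites (38 of 62, 48.8 to 72.4), 68.8% of mitochondrial sites (86 of 125, 60.2 to 76.3) and 60.0% of all sites. The 4 bases before the site were paired in 52.0%, 49.4% and 51.5%, and the 4 after it in 70.6%, 71.8% and 69.3%. Thus the predicted pattern of an open stretch followed by a stem was found in both classes as in all sites.

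Type II sites were few. They made up 4 of 72 distinct cytosolic sites (5.56%, 2.18 to 13.4) and 8 of 134 mitochondrial sites (5.97%, 3.06 to 11.3), against 4.13% of all sites. The cytosolic ones were in Rpl7l1 (20.3% of 64 GV and 16.1% of 62 MII reads), Rpl12 (29.7% of 37 embryo reads), Rpl4 (10.2% of 481) and Rps3 (11.1% of 81). The mitochondrial ones were in Mrps2 (22.8% of 114 GV and 30.0% of 130 MII reads), Mrpl44 (15.7% of 140 MII and 27.1% of 70 embryo reads), Mrpl10, Mrpl17 and Mrps25 in the MII oocyte alone (10.3% to 12.7%), and Mrpl15, Mrpl24 and Mrps28 in the embryo alone (41.4% of 29, 18% of 89 and 38.5% of 26 reads). Only Mrps2 and Rpl7l1 had a Type II site in the GV oocyte list.

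Called C next to each other often differed in level, though not in every pair, and the differences were not tested. Of 7 pairs, Mrpl37 had 81.9% of 83 reads at the first C, shown above, and 12.5% of 88 at the second in the embryo. Mrpl4 had 17.2% of 64 and 57.1% of 63, and Mrpl9 14.1% of 156 and 32.9% of 155. Mrps28 had the first C higher in both oocytes (47.4% against 18.6%, and 49.4% against 19.9%), and Rps14 the second at all 3 stages (13.0% against 19.3%, 11.1% against 18.7% and 19.8% against 40.4%). The Mrps26 pair (51% of 49 and 36.2% of 47) and the Mrpl38 pair (20.0% and 17.8%, 45 reads each) were nearer to each other.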

How the data were processed

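The 3 lists of m5C sites came from 1 library per stage. Per the methods and the labels, reads were trimmed (cutadapt 1.13, Trimmomatic 0.36), aligned uniquely to the converted genome (HISAT2 2.10, GRCm38) and then to transcripts (Bowtie2 2.2.9). The labels name polyA RNA and the methods name RNA depleted of rRNA. The deposited coverage is the count of reads that cover a site with C or T, not normalized. The deposited m5C level is a fraction, given here in percent. The p-value the authors deposited was used only to check the lists. In the embryo list the coverage differs from that tabulated with the study at most compared sites, so its values describe the deposited library alone.

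Unconverted reads were taken as level times coverage. Sites were placed in GENCODE M21 transcripts of their gene, and the 1 member site in no exon was not typed. Sites of each pair of lists were tested with Fisher's exact test (two-sided, scipy 1.17.1), adjusted over all shared sites, a step tested on simulated data. Intervals are Wilson for shares and levels, exact Poisson for counts and by order statistics for medians, at 95%. They cover counting error only. Windows of 101 nt were folded with RNAfold (ViennaRNA 2.7.2, 37 °C). Copies are exact matches of the converted 51-nt window in transcripts of other genes. The members and gene lists were chosen with earlier results of these data known. Named sites are those in all 3 lists, the 3 highest at 50 reads or more and the 3 deepest per class and stage, the genes with most sites, up to 5 rises and 5 falls called per pair, Type II sites and ribosomal proteins under other names. Alternatives were minimums of 50 or 100 reads or of 20% level, genes with standard names only, 1 median per gene, reads divided by 5 and the motif CUCCA alone. Leaving out sites with copies and splitting shared sites by depth were chosen after seeing the data. The rest was done in Python 3.11.15 with pandas 2.3.3, numpy 2.4.6 and matplotlib 3.10.9.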

Additional observations from a re-analysis of the deposited data

How the results depend on the processing

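Of 120 alternative values, 90 stayed within the error of the value reported, 27 moved beyond it and 3 turned in direction. Cytosolic site counts in the GV oocyte, MII oocyte and embryo became 13, 10 and 30 at a level of at least 20%, and 18, 16 and 19 without sites that have their 51-nt window in another gene. At 100 reads or more they became 17 in the MII oocyte and 30 in the embryo. Mitochondrial counts became 27, 30 and 52 at a level of at least 20%, 64 in the embryo at 50 reads, and 27 in the GV oocyte and 19 in the embryo at 100 reads, below the cytosolic 30. The embryo median level became 13.9% (cytosolic) and 15.1% (mitochondrial) at 100 reads and 17.3% (mitochondrial) at 50 reads. The cytosolic minus mitochondrial median of the embryo turned from 2.18 points to -0.0407 at 50 reads and to -2.35 with 1 median per gene. The cytosolic MII minus GV median turned to 0.831 points without sites that have a copy. With reads divided by 5, Fisher's exact test called 0 cytosolic and 0 mitochondrial sites higher and 1 cytosolic site lower in the MII than in the GV oocyte, 4 cytosolic and 1 mitochondrial higher in the embryo than in the MII oocyte, and 4 and 3 higher than in the GV oocyte. At 50 reads the cytosolic embryo shares became 2.5% in the 5′ UTR and 87.5% in CDS, and with CUCCA alone 1 cytosolic embryo site was Type II. Where no value above shows a cause, the cause was not tested. No paired analysis was possible because each stage has 1 library.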

Other observations

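Ribosomal proteins under other names were too few to describe as classes. Among the cytosolic ones, Fau had no site in any list, and the only site of Rack1, a scaffold of the small subunit, had 48.4% of 928 GV reads, 26.6% of 1041 MII reads and 44.5% of 256 embryo reads. It was called lower and then higher (Fisher's exact test, adjusted p = 4.51e-21 and 3.69e-07), the first also with reads divided by 5 (Fisher's exact test, adjusted p = 0.00245), and its 51-nt window was found in 0 other genes. Of the mitochondrial ones, Gadd45gip1 had sites of 57.2% of 2243, 65.4% of 1782 and 74.7% of 689 reads and of 20.5% of 3514, 27.4% of 2970 and 31.4% of 1271, each called higher from stage to stage (Fisher's exact test, adjusted p from 3.83e-09 to 0.0201). In Aurkaip1 the shared site had 12.0% of 325, 14.5% of 200 and 23.4% of 47 reads, in Chchd1 32.2% of 87 and 37.5% of 48 in the oocytes, and in Ptcd3 32.8% of 64 and 19.1% of 47, with no call. Dap3 had 1 site, in the embryo, and Ict1 is the older name of Mrpl58.

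The mRNAs of ribosome assembly factors and of mitochondrial translation factors stayed near or below the shares of all shared sites between the oocytes. Of all shared sites 19.6% were called higher and 0.965% lower in the MII against the GV oocyte, with a median of 4.87 points. For 108 cytosolic ribosome assembly factors the median difference between the MII and the GV oocyte was 3.91 points over 112 shared sites, with 14 called higher and 0 lower by Fisher's exact test. For 39 mitochondrial ribosome assembly and translation factors it was 4.72 points over 39 sites, with 4 higher and 0 lower. For 19 other mRNAs with a 5′ terminal oligopyrimidine tract, not all of them ribosome factors, it was -1.92 points (-4.21 to 0.927) over 12 sites. Of these 12 sites 8 were lower and 4 higher, where 22.8% of all shared sites were lower, and none was called. From the MII oocyte to the embryo, 27 of 56, 11 of 19 and 8 of 11 sites of these lists were called higher, and 1 (Pwp2), 1 (Malsu1) and 0 lower, where 51.3% and 2.45% of all shared sites were.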
